A study of Mus musculus with 2 samples.

Results

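The chemokines Cxcl1, Cxcl5, Cxcl9, Cxcl10, Cxcl12, Cxcl16, Ccl2, Ccl5, Ccl7 and Cx3cl1 were followed in CT26, a mouse colon cancer cell line. They were chosen by symbol, and all 10 were found as protein-coding rows among the 54680 loci of the gene table. RNA sequencing of total RNA gave 2 libraries. CT26shSetdb1 came from CT26 cells given a lentiviral short hairpin RNA against Setdb1, a histone H3 lysine methyltransferase. CT26shCtrl came from CT26 cells of wild-type genotype given the empty lentiviral vector (shCtrl), and whether that vector expressed any hairpin is not said. Lentiviral infection is common to the groups. Both cultures grew for 6 days in RPMI medium with serum and were collected with trypsin, and per the labels the knockdown cells had differentiated by then. Whether the cells were a clone or a pool, and how many hairpins were used, is not given in the sources used here. Each group had 1 library, so no difference below has a replicate check and each describes these libraries, not the conditions.

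Chemokines are small secreted or membrane-tethered proteins that guide migrating leukocytes through G-protein-coupled receptors. CXCL9 and CXCL10 bind CXCR3 on activated T and NK cells, CCL5 binds CCR1, among other receptors, and draws T cells and monocytes, and CXCL16 binds CXCR6. CXCL1 and CXCL5 bind CXCR2 and draw neutrophils, while CCL2 and CCL7 bind CCR2 and draw monocytes. CXCL12, through CXCR4, and CX3CL1, through CX3CR1, act on several leukocyte types. Tumour cells are known to make some of these proteins, and Cxcl10 and Ccl5 are textbook interferon-inducible genes, while Cxcl1 is a textbook NF-kappaB target. On this basis Cxcl9, Cxcl10, Cxcl16 and Ccl5 were grouped as T-cell-attracting, Cxcl1, Cxcl5, Ccl2 and Ccl7 as myeloid-attracting, and Cxcl12 and Cx3cl1 as broadly acting. The grouping is a simplification, since CCL5 also attracts monocytes.

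Promoter sequence is shown for Cxcl10 and Cxcl1, which were far higher in CT26shSetdb1, and for Cxcl9, which lies beside Cxcl10 and had no reads. RefSeq windows (GRCm38.p6) were matched for 5 of the 10 genes, Cxcl1, Cxcl9, Cxcl10, Cxcl12 and Cx3cl1, and each sequence runs over the 250 bases before the annotated start, 5′ to 3′ on the gene's strand. Capitals mark matches, on either strand, to 2 motifs. The first is the interferon-stimulated response element, ISRE, searched as GAAA and GAAA with 2 bases of any kind between them. The second is a form of the kappaB site, searched as GGG and TTCC with 3 bases of any kind between them. The Cxcl10 window is chr5:92348890-92349139 on the minus strand, the Cxcl1 window chr5:90890995-90891244 on the plus strand and the Cxcl9 window chr5:92328080-92328329 on the minus strand.
Cxcl10: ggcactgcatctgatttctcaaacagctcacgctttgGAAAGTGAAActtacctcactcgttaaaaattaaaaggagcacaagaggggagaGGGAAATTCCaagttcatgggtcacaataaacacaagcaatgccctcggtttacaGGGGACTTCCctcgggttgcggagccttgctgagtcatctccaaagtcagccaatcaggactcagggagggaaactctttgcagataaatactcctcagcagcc
Cxcl1: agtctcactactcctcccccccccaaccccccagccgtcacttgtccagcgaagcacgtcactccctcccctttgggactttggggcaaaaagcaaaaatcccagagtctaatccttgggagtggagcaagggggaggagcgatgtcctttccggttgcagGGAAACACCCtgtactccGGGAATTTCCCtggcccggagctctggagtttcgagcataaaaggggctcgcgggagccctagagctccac
Cxcl9: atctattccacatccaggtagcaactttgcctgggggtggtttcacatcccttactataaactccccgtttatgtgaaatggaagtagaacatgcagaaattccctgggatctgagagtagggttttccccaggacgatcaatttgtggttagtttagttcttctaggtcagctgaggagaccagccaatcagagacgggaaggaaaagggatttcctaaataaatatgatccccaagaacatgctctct

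The Cxcl10 window held 1 ISRE match, GAAAGTGAAA, and 2 kappaB matches, GGGAAATTCC and GGGGACTTCC. The Cxcl1 window held 3 kappaB matches, of which GGGAATTTCC and GGAATTTCCC overlap by all but their end bases on opposite strands and the other is GGAAACACCC, with no ISRE match, all spelled as on the printed strand. The windows of Cxcl9, Cxcl12 and Cx3cl1 held neither motif. A further motif, the gamma-interferon activated site, searched as TTC and GAA with 3 bases of any kind between them, had no match in any of the 5. Over all 32851 RefSeq windows of this length, 2.98% held an ISRE match, 4.65% a kappaB match and 7.02% a match to the gamma-interferon activated site. A match describes letters only, and no match says only that these letters are not in the window.

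The libraries were of near-equal depth, at 19045830 reads for CT26shSetdb1 and 18421604 for CT26shCtrl, a ratio of 1.03. Levels are FPKM, fragments scaled by gene model length and by 1 depth common to both libraries, so comparing genes rests on the models. The models of Cxcl1 (1875 bases) and Cxcl10 (2252 bases) equal the whole span of the gene, while that of Ccl5 (960 bases) is a part of its span. A difference is given as the log2 of (FPKM + 1) in CT26shSetdb1 over that in CT26shCtrl, on which low genes appear less changed than they are, and as a read ratio relative to each library's own total. Read ratios carry 95% exact binomial (Clopper-Pearson) intervals and levels carry 95% exact Poisson intervals. Both cover counting error only and leave out variation between cultures. PCR reads without molecular identifiers are not independent molecules, so the intervals may understate even the counting error. Setdb1 itself was at 10.4 FPKM in CT26shCtrl and 2.47 FPKM in CT26shSetdb1, a read ratio of 0.229 (0.202 to 0.259). Its model overlaps Cers2, which had 12233 and 8639 reads, and whether counting used strand is not given in the sources used here.

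Among the chemokines, 3 were far higher in CT26shSetdb1, namely Cxcl1, Ccl5 and Cxcl10, and the other 7 stayed under 1 FPKM in both libraries. These 3 were the members that reached 1 FPKM in at least 1 library, the minimum for a gene to be counted, and all 3 were more than 2-fold higher, with 0 more than 2-fold lower. Over the 10671 genes at that minimum, 6.81% were higher by that factor or more and 4.85% lower. All 3 were under 1 FPKM in CT26shCtrl and reached the minimum only through CT26shSetdb1, so their count carries no weight of its own. The sizes are set against the whole table instead. The log2 ratio of Cxcl1 ranked 10 from the top of the 10671 genes, that of Ccl5 ranked 12 and that of Cxcl10 ranked 23. In all, 629 genes were under 1 FPKM in CT26shCtrl and at 1 FPKM or more in CT26shSetdb1, and their median log2 ratio was 0.77. Only these 629 genes could rise from under 1 FPKM in CT26shCtrl to 10 FPKM or more, and 11 of them did. The 11 were 0.103% of all 10671 genes counted, a wider base than the 629, and 3 of the 11 were these chemokines. The level of 10 FPKM was chosen after the values were seen, so this count carries no weight of its own either.

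**Figure D1:**
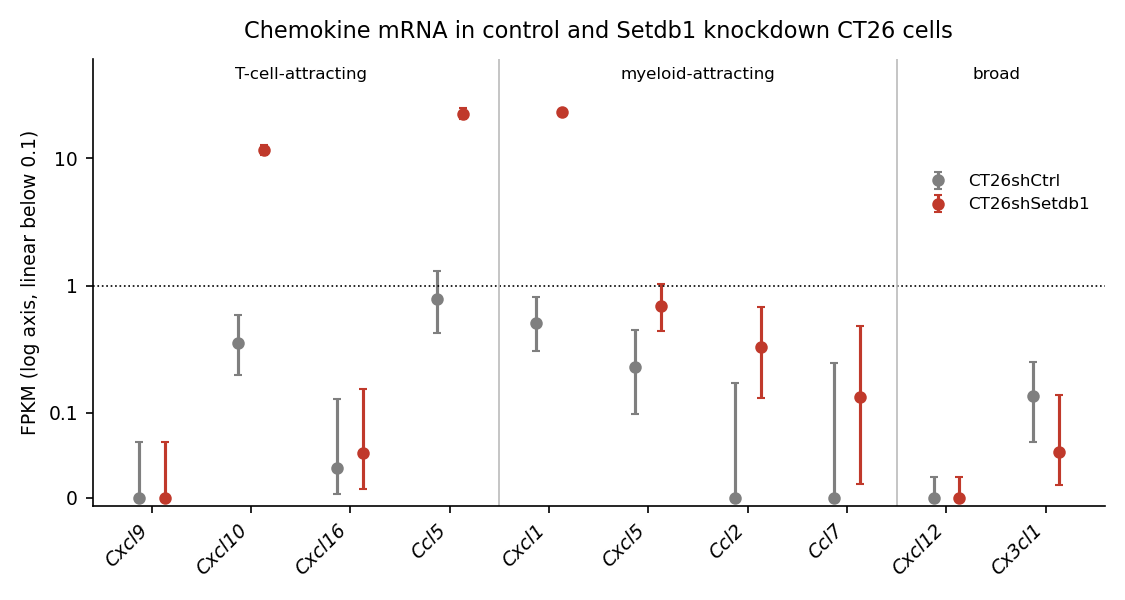
FPKM of the 10 chemokines in CT26shCtrl (grey) and CT26shSetdb1 (red), 1 library each, on a log axis that is linear below 0.1. Bars are 95% exact Poisson intervals (counting error only) and the dotted line is 1 FPKM. Cxcl10, Ccl5 and Cxcl1 lie between 11.7 and 22.9 FPKM in CT26shSetdb1, and every other point is under 1 FPKM.

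Of the T-cell-attracting genes, Cxcl10 and Ccl5 were higher and Cxcl9 and Cxcl16 were at or near 0. Cxcl10 (ENSMUSG00000034855, chromosome 5, 92346638 to 92348889, minus strand, GRCm38) had 15 reads or 0.356 FPKM in CT26shCtrl and 493 reads or 11.7 FPKM in CT26shSetdb1. The log2 ratio of 3.23 went with a read ratio of 31.8 (19.1 to 57.2). Its model overlaps Art3 on the opposite strand, which had 4 and 3 reads in control and knockdown, far fewer than the Cxcl10 reads gained. Ccl5 (ENSMUSG00000035042, chromosome 11, 83525778 to 83530518, minus strand) had 14 reads or 0.779 FPKM in CT26shCtrl and 402 reads or 22.4 FPKM in CT26shSetdb1. Its log2 ratio was 3.72 and its read ratio 27.8 (16.4 to 51.3). Both genes were present at a trace level in control cells and at a moderate level in knockdown cells: in CT26shSetdb1, 18.0% of protein-coding loci were at or above the level of Cxcl10 and 11.7% at or above that of Ccl5.

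Cxcl9 (ENSMUSG00000029417, chromosome 5, 92321347 to 92328079, minus strand), the other CXCR3 ligand among the members, had 0 reads in either library. A count of 0 allows up to 3 reads, which for this gene is 0.0531 FPKM. Cxcl9 and Cxcl10 lie 18558 bases apart, and in knockdown cells these neighbouring CXCR3 ligands had 0 and 493 reads. Cxcl16 (ENSMUSG00000018920, chromosome 11, 70453983 to 70459984, minus strand), a membrane-anchored ligand, had 2 reads in CT26shCtrl and 3 in CT26shSetdb1, and no fold is given at these counts.

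Of the myeloid-attracting genes, Cxcl1 was the member with the highest ratio of all 10. Cxcl1 (ENSMUSG00000029380, chromosome 5, 90891241 to 90893115, plus strand) had 18 reads or 0.513 FPKM in CT26shCtrl and 803 reads or 22.9 FPKM in CT26shSetdb1. Its log2 ratio reached 3.98 and its read ratio 43.1 (27.1 to 73.2). The other neutrophil attractant, Cxcl5 (ENSMUSG00000029371, chromosome 5, 90759360 to 90761624, plus strand), had 8 reads or 0.229 FPKM in CT26shCtrl and 24 reads or 0.688 FPKM in CT26shSetdb1. Its read ratio was 2.90 (1.26 to 7.47) and its log2 ratio, 0.46, was under the 2-fold threshold. The read ratio of Cxcl1 was 14.7 times that of Cxcl5 (5.03 to 40.1), so these CXCR2 ligands differed in the size of their change by more than counting error.

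The monocyte attractants were at the edge of detection. Ccl2 (ENSMUSG00000035385, chromosome 11, 82035571 to 82037453, plus strand) had 0 reads in CT26shCtrl and 7 reads or 0.328 FPKM in CT26shSetdb1. With the control count set at the floor of 3 reads this is 2.26-fold higher, and the counting interval of the ratio starts lower, at 1.39. Ccl7 (ENSMUSG00000035373, chromosome 11, 82045712 to 82047525, plus strand) had 0 and 2 reads, for which no fold is given. A difference in Ccl7 was not detectable at this depth.

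Of the broadly acting genes, Cx3cl1 (ENSMUSG00000031778, chromosome 8, 94772009 to 94782427, plus strand), the membrane-tethered fractalkine, had 10 reads or 0.136 FPKM in CT26shCtrl and 4 reads or 0.0543 FPKM in CT26shSetdb1. It was the 1 member with fewer reads in CT26shSetdb1, with a read ratio of 0.387 whose interval, 0.0886 to 1.34, holds 1. Cxcl12 (ENSMUSG00000061353, chromosome 6, 117168535 to 117181367, plus strand), known chiefly as a product of stromal cells, had 0 reads in either library, which allows 0.0196 FPKM.

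Counted by read ratio, the interval lay wholly above 1 for 5 of the 8 members with a read and wholly below 1 for 0. Over the 18909 genes with a read it lay above 1 for 23.6% and below 1 for 26.8%. Of the 5 members with a read that stayed under 1 FPKM, the interval lay above 1 for 2, Cxcl5 and Ccl2. Among all 8238 genes with a read that stayed under 1 FPKM in both libraries, the share above 1 was 8.64% and below 1 was 8.95%. With so few members this is a description of them and not of chemokines as a class.

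**Figure D2:**
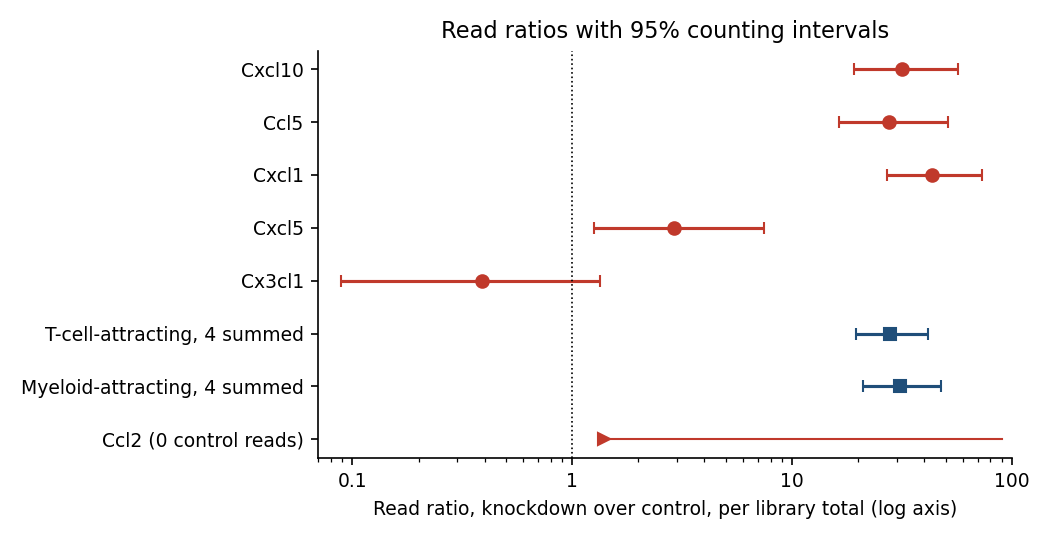
Read ratio, knockdown over control and relative to each library's total, on a log axis, with 95% Clopper-Pearson intervals, for the members with more than 3 reads in a library (circles; the Ccl2 triangle marks the lower bound of an interval with no upper end) and for the summed T-cell-attracting and myeloid-attracting members (squares). Cxcl10, Ccl5 and Cxcl1 lie between 27.8 and 43.1, with intervals that overlap.

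T-cell-attracting and myeloid-attracting chemokines, each taken as a sum, did not differ in their ratio beyond counting error. The 4 T-cell-attracting genes summed to 31 reads in CT26shCtrl and 898 in CT26shSetdb1, a ratio of 28.0 (19.6 to 41.5). The 4 myeloid-attracting genes summed to 26 and 836 reads, a ratio of 31.1 (21.1 to 47.9). The first ratio was 0.901 times the second, with an exact conditional interval of 0.509 to 1.58, so a difference of up to 1.58-fold one way or to 0.509 the other is within counting error. Each sum rests on few genes, Cxcl10 and Ccl5 in the one and Cxcl1 in the other. Among the members at 1 FPKM or more, the median log2 ratio was 3.47 for the T-cell-attracting genes (2 genes) and 3.98 for the myeloid-attracting genes (1 gene), beside -0.00039 over all genes counted, and these medians again follow from which genes reached the minimum.

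The 3 high members did not differ from each other in ratio beyond counting error. The ratio of Cxcl1 was 1.55 times that of Ccl5 (0.707 to 3.34) and 1.36 times that of Cxcl10 (0.630 to 2.88), and that of Cxcl10 was 1.14 times that of Ccl5 (0.505 to 2.58). Their control counts of 14 to 18 reads set these wide intervals. Between the low members, the ratio of Cxcl5 was 7.12 times that of Cx3cl1 (1.54 to 40.5). In all 6 such comparisons were computed, 1 of them between classes. The pairs of genes were chosen after the values were seen, and the intervals are not adjusted for their number.

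In level, the order of the members was clearer in CT26shSetdb1 than in CT26shCtrl. In knockdown cells Cxcl1 at 22.9 FPKM (21.3 to 24.5) and Ccl5 at 22.4 FPKM (20.2 to 24.7) overlapped in their intervals. Cxcl10 at 11.7 FPKM (10.7 to 12.8) was below both, and Cxcl5 at 0.688 FPKM (0.441 to 1.02) was far below Cxcl10. In reads, Cxcl10 had 493 and Ccl5 402, so their order in FPKM comes from model lengths of 2252 and 960 bases. The intervals do not cover this. Ccl2, Ccl7, Cx3cl1 and Cxcl16 followed with overlapping intervals. In control cells Ccl5 at 0.779 FPKM (0.426 to 1.31), Cxcl1 at 0.513 FPKM (0.304 to 0.810), Cxcl10 at 0.356 FPKM (0.199 to 0.587), Cxcl5 at 0.229 FPKM (0.0990 to 0.452), Cx3cl1 and Cxcl16 each overlapped the next in the order.

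The summed level of the 10 members was 2.05 FPKM in CT26shCtrl and 58.2 FPKM in CT26shSetdb1, a log2 ratio of 4.83 with no pseudocount. Ccl5 made up 38.0% of the sum in control cells and 38.4% in knockdown cells. The share of Cxcl1 was 25.0% and 39.3%, and that of Cxcl10 was 17.4% and 20.1%. Cxcl5 and Cx3cl1 had 11.2% and 6.64% of the control sum and 1.18% and 0.0934% of the knockdown sum. The 3 high members thus made up nearly all of the knockdown sum. Shares of a sum of FPKM depend on the model lengths, as the levels do.

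Most chemokine genes sit in clusters, taken here as neighbours under 500000 bases apart, and in each cluster with reads 1 gene carried most of the knockdown reads. On chromosome 5, from 90759360 to 90905938, Cxcl1 had 803 of 848 knockdown reads over 7 chemokine genes. Cxcl2, a close relative of Cxcl1 that also binds CXCR2 and begins 10755 bases downstream, had 0 reads in either library and was named after its value was seen. In the 92321347 to 92365485 stretch of chromosome 5, Cxcl10 had 493 of 497 knockdown reads, and Cxcl11, 10654 bases away and also named after its value was seen, had 2 and 4 reads. On chromosome 11, from 83525778 to 83664683, Ccl5 had 402 of 475 knockdown reads over 5 genes. The separate chromosome 11 stretch with Ccl2 and Ccl7, from 82035571 to 82305690, held 0 reads in CT26shCtrl and 9 in CT26shSetdb1 over 6 genes. Chemokines of a cluster are paralogs, and how reads shared between them were counted is not given in the sources used here.

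**Figure D3:**
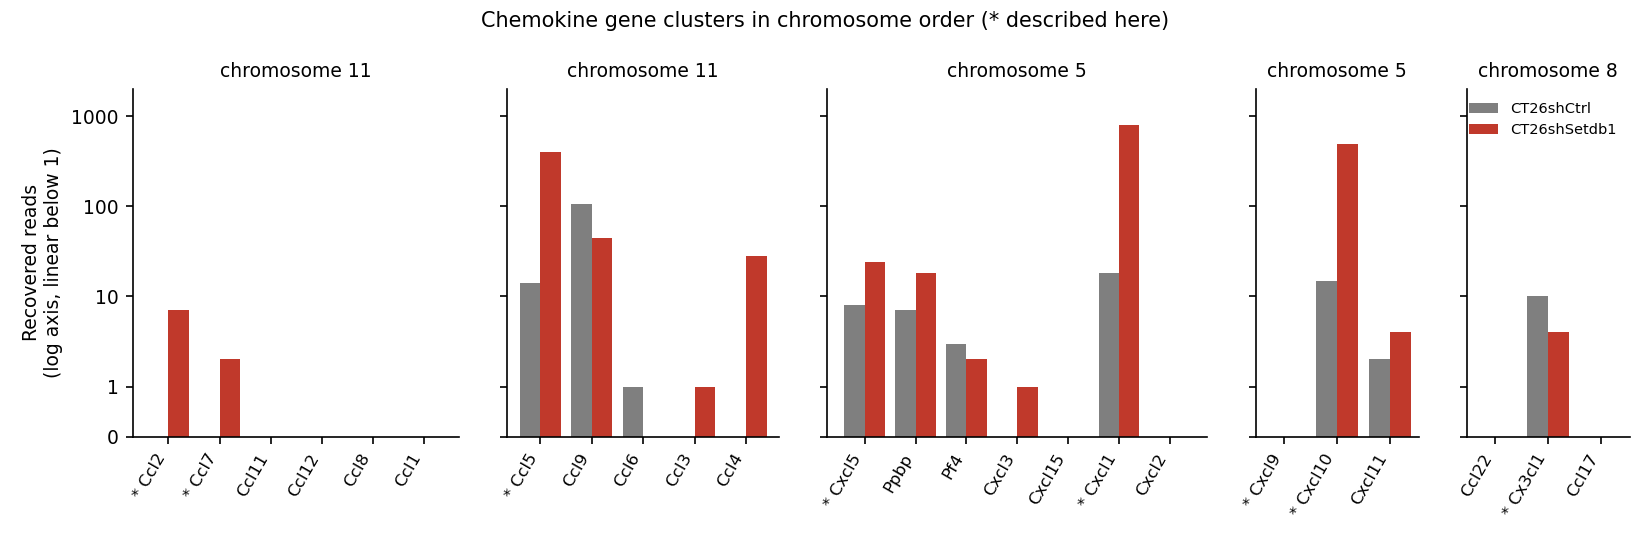
Recovered reads of chemokine genes in chromosome order, in CT26shCtrl (grey) and CT26shSetdb1 (red), on a log axis that is linear below 1. Panels are the 5 clusters that hold a starred member. A gene with no bar had 0 reads. Cxcl1 (803), Cxcl10 (493) and Ccl5 (402) stand above their neighbours in CT26shSetdb1.

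The other 28 chemokine genes, listed by symbol and found at 32 loci of which the one with most reads was used per symbol, summed to 174 reads in CT26shCtrl and 173 in CT26shSetdb1. Of these genes 2 reached 1 FPKM, 1 of them 2-fold or more higher and 0 lower by as much (6.81% and 4.85% of all genes counted). Ccl4, an inflammatory chemokine of the Ccl5 cluster, had 0 reads in CT26shCtrl and 28 reads or 2.26 FPKM in CT26shSetdb1. With the control count set at the floor of 3 reads this is 9.03-fold higher, and the counting interval starts lower, at 6.87. Like the 3 high members, Ccl4 reached the minimum only through CT26shSetdb1, as did the receptor gene Ccr1. Ccl9, a CCR1 ligand that lies 42400 bases from Ccl5, went the other way, with 107 reads or 1.88 FPKM in CT26shCtrl and 44 reads or 0.771 FPKM in CT26shSetdb1. Its read ratio was 0.398 (0.273 to 0.570) and its log2 ratio of -0.70 was short of the threshold. The remaining 26 genes had 67 and 101 reads, and 15 of them had none.

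The receptors were examined because a ligand can act on the cell that makes it. Of 23 chemokine receptor genes, 2 reached 1 FPKM and both were at least 2-fold higher, beside 6.81% of all genes counted. Of these 2, Ccr1 reached 1 FPKM only through CT26shSetdb1, so its part in the count carries no weight. Ccr1, a receptor for CCL5, CCL7 and CCL9, had 7 reads or 0.132 FPKM in CT26shCtrl and 164 reads or 3.09 FPKM in CT26shSetdb1, a read ratio of 22.7 (10.8 to 57.2). Ackr3, an atypical receptor that scavenges CXCL12, had 227 reads or 3.62 FPKM in CT26shCtrl and 664 reads or 10.6 FPKM in CT26shSetdb1, a read ratio of 2.83 (2.43 to 3.30). The canonical receptors Cxcr2, Cxcr3, Cxcr4 and Ccr2, named after their values were seen, had 0 reads in both libraries. The other 21 receptors together had 19 and 28 reads.

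Regulators known to act on chemokine genes were read from lists chosen with earlier results of these data known. Of 16 interferon-linked genes 14 reached 1 FPKM, 4 of them 2-fold or more higher and 0 lower by as much. Of all 10671 genes counted, 6.81% were higher and 4.85% lower by that factor. The median log2 ratio of the 14 was 0.85. The interval of the read ratio lay above 1 for 12 of the 14 and below 1 for 0. Over all genes counted these shares were 35.2% and 40.6%. Irf5 (0.423 FPKM in CT26shCtrl and 2.85 in CT26shSetdb1) and Irf8 (0.621 and 2.21) reached 1 FPKM only through CT26shSetdb1. Their part in these counts and in the median carries no weight. Irf7, Stat2, Irf9 and Irf5, transcription factors of interferon signalling and its induction, had log2 ratios of 4.91, 2.20, 1.88 and 1.44. Ifnar1 and Ifnar2, the type I interferon receptor chains, were at 0.21 and 0.08, and Ifngr1, an interferon gamma receptor chain, was lowest at -0.02, with a read ratio whose interval of 0.839 to 1.09 holds 1. Ifngr2, the other chain of that receptor, had 360 and 764 reads, a read ratio of 2.05 (1.81 to 2.33) and a log2 ratio of 0.95. Ifnb1, which encodes interferon beta, had 1 read in CT26shCtrl and 5 in CT26shSetdb1, and Ifng had 0 in both.

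Of 22 NF-kappaB-linked genes 17 reached 1 FPKM, 3 of them 2-fold or more higher and 0 lower by as much. Of all genes counted, 6.81% were higher and 4.85% lower by that factor. The median log2 ratio of the 17 was 0.51. The interval of the read ratio lay above 1 for 12 of the 17 and below 1 for 5, where over all 10671 genes counted it lay above 1 for 35.2% and below 1 for 40.6%. The 3 past the threshold were Nfkbie and Nfkbia, which encode inhibitors that NF-kappaB itself induces, and Zc3h12a, which encodes an RNase that degrades cytokine mRNAs. Nfkbia was at 12.8 FPKM in CT26shCtrl and 52.3 FPKM in CT26shSetdb1, and Nfkbie at 4.96 and 24.4 FPKM. The subunit genes Rela and Rel had log2 ratios of -0.64 and -0.71, and Relb and Nfkb2 had 0.74 and 0.72, all short of the threshold. Rel, at 1.15 FPKM in CT26shCtrl and 0.315 FPKM in CT26shSetdb1, reached 1 FPKM only through CT26shCtrl, so its part in the counts carries no weight. The cytokines Tnf, Il1a, Il1b and Il17a had 0 reads in both libraries and Il6 had 0 and 2. Whether any of these genes acts on the chemokines here was not tested.

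**Figure D4:**
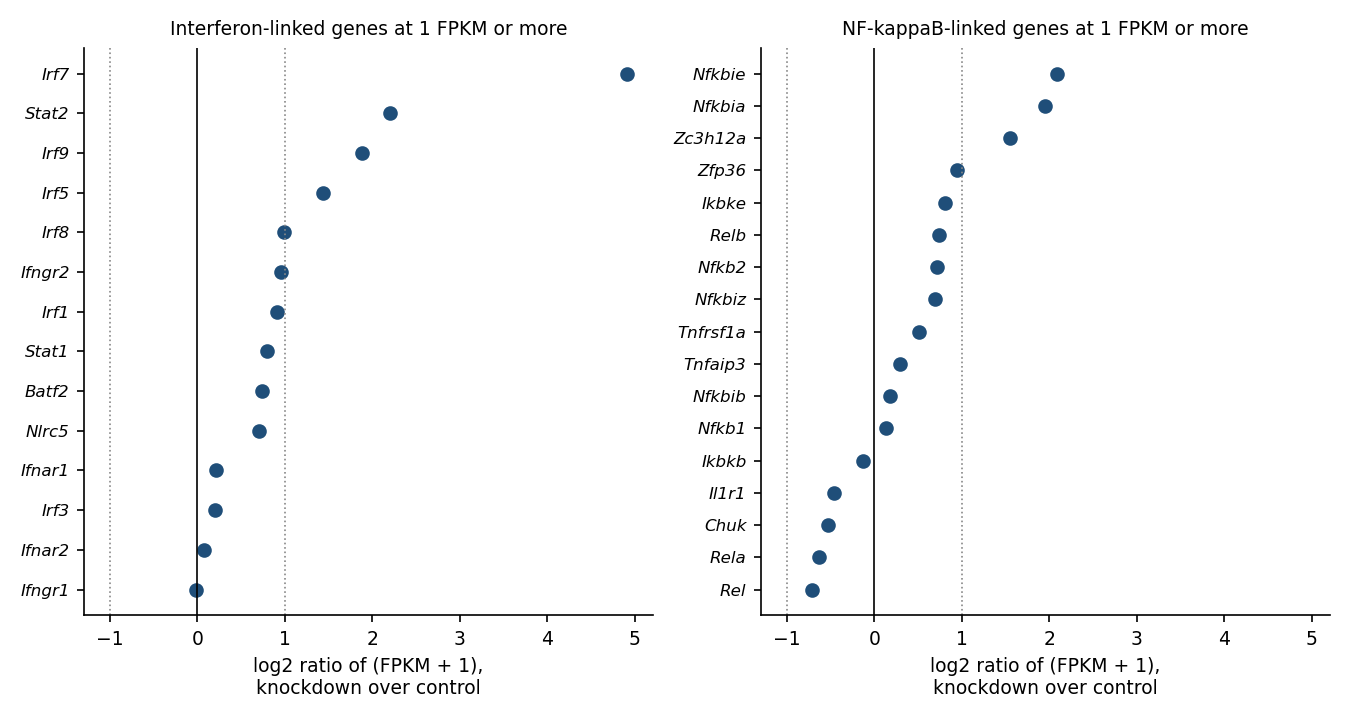
Log2 ratio of (FPKM + 1), knockdown over control, for the 14 interferon-linked and 17 NF-kappaB-linked genes that reached 1 FPKM. Points are single differences between 1 library per group, without error bars, and dotted lines mark 2-fold. Irf7 lies furthest right at 4.91, and Nfkbie leads the NF-kappaB-linked genes at 2.09.

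Chemokines are also made by leukocytes and stromal cells, so markers of those cells were read beside the members. T and NK cell markers (9 genes) summed to 2 and 5 reads in control and knockdown, B cell markers (4 genes) to 6 and 3, and neutrophil markers (6 genes) to 6 and 2. The pan-leukocyte gene Ptprc had 0 and 4 reads, Cd52 had 0 in both and Coro1a had 10 and 20. Of 9 macrophage and monocyte markers, Cd68 had 245 and 2360 reads and Cd14 had 638 and 1217, Lyz2 had 23 and 21, Mrc1 had 2 and 18, and Ly6c2 had 0 and 6. Adgre1, Itgam and C1qa had 0 in both libraries and Csf1r had 1 and 0. The 9 genes summed to 909 and 3622 reads. The read-ratio interval lay above 1 for 4 of the 6 with a read and below 1 for 0. Over all genes with a read it lay above 1 for 23.6% and below 1 for 26.8%. The part of these 9 genes in the chemokine result was not tested. Endothelial markers (6 genes) summed to 136 and 163 reads, of which Vwf had 135 and 163, and Pecam1, Cdh5, Kdr and Emcn had none. Fibroblast markers (7 genes) summed to 37953 and 26705 reads, mostly of Col1a2 with 32503 and 21896. Pdgfra in that list went the other way, with 94 and 333 reads, while Pdgfrb had 1381 and 1493 and Dcn 23 and 33. The part of stromal genes in the result was not tested. Of the 10 colon epithelial markers, which summed to 1216 and 3795 reads, Epcam, Cdh1 and Lgr5 had 0 reads in both libraries. Cdx2 had 5 and 18 reads, Vil1 1 and 7, Krt8 7 and 8, and Muc2 3 and 1. Of the 3 at 1 FPKM or more, Krt18 had 1016 and 2423 reads, Krt20 183 and 1285, and Krt19 1 and 53. The part of these epithelial genes in the result was not tested. In bulk RNA, more cells making a chemokine and more RNA per cell cannot be told apart.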

How the data were processed

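Libraries were made with a NEBNext Ultra RNA kit from TRIzol-extracted total RNA, per the labels' protocols. The submitters' processing notes name CASAVA, HISAT2, featureCounts 1.5.0-p3 and GRCm38, without order or settings. The authors deposited FPKM per gene. All 10 members had the same position in GENCODE M21 (GRCm38), as did 98.3% of shared gene IDs. Reads were recovered as FPKM times model length over the value of 1 read. In each library 100% of values above 0 came out whole, within 0.01 read, and the libraries had been divided by 1 common depth of 18731117 reads.

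Groups came from the genotype labels. The pseudocount was 1, the minimum 1 FPKM in at least 1 library and the threshold 2-fold. No test across conditions was possible with 1 library per group. The members and lists were chosen with earlier results of these data known. All members are named, and of the other lists the genes at 1 FPKM or more may be named. Any gene of those lists named under 1 FPKM was chosen after its value was seen, also where this is not said. Alternatives were the pseudocount, the minimum, 3 scalings, CPM, the threshold, the lists and means. Scripts were tested on simulated data, 10671 genes of which 200 were changed 4-fold. The threshold found 188 and called 21 unchanged genes. The simulation held counting error only and no variation between cultures, so these numbers are not error rates for the 2 libraries. Tools were scipy 1.17.1, pandas 2.3.3, numpy 2.4.6 and matplotlib 3.10.9 under Python 3.11.15. A result for 1 of the listed receptors is not reported here.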

Additional observations from a re-analysis of the deposited data

How the results depend on the processing

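Alternatives gave 58 values of the 7 summary results, of which 46 stayed within 1.5 times the count or within counting error, 12 moved and 0 reversed. Of the 46, at least 8 could not move: 4 medians, since means over 2 genes and 1 gene equal them and the genes added to the lists were under the minimum, and 4 counts without a minimum, since a gene under 1 FPKM cannot reach 2-fold on this scale. A minimum of 5 FPKM could not change which members counted either, since the 3 high ones were at 11.7 to 22.9 FPKM and the others under 1 FPKM. The scalings, by factors of 0.998 to 1.06, were small beside the ratios of these 3. The count of 3 chemokines at least 2-fold higher and 0 lower was the same under all alternatives run, 4-fold included. With log2 ratios of 3.23 to 3.98 these alternatives could hardly change it, so this is a weak check. With a pseudocount of 0.1, 1134 genes were higher and 870 lower, the T-cell-attracting median was 4.68 and the myeloid-attracting median 5.23. At 1.5-fold 1804 genes were higher and 1523 lower, and at 4-fold 116 and 56, as those thresholds make them. With no minimum on FPKM, the medians were 1.63 and 0.43, because members with few or no reads enter. On log2(CPM + 1) they were 3.77 and 4.45. Of 50 values for single members 11 moved, 8 with the pseudocount of 0.1 and 3 with CPM, and 0 reversed. Cxcl5, Ccl2 and Ccl7 were past 2-fold with that pseudocount, at 1.26, 2.10 and 1.22, but under 1 FPKM. No paired analysis was possible because a group held a single library, which also leaves no library to omit. Depth limits the low members: the 7 under 1 FPKM had 20 reads in CT26shCtrl and 40 in CT26shSetdb1 in all.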

Other observations

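Proteases known to shed or trim chemokines were read from a list of 10 genes, of which 3 reached 1 FPKM and 0 passed 2-fold in either direction. Adam10, a sheddase of CX3CL1 and CXCL16, was at 3.98 FPKM in CT26shCtrl and 2.69 FPKM in CT26shSetdb1, a read ratio of 0.655 (0.556 to 0.772). Adam17, the other main sheddase, was at 1.86 and 2.63 FPKM, a read ratio of 1.37 (1.16 to 1.62). Ctsl, a lysosomal cysteine protease, was at 312 and 380 FPKM, a read ratio of 1.18 (1.16 to 1.19). Ctsk, named after its value was seen, had 1 read in CT26shCtrl and 28 in CT26shSetdb1, a read ratio of 27.1 with a counting interval of 4.48 to 1107.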
